A study of Mus musculus with 3 samples.

Results

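MicroRNA gene loci were examined for peaks of CHD7 and SOX2 in the mouse otocyst, the epithelial vesicle that gives rise to the inner ear. The members were all 1228 genes with the biotype microRNA on chromosomes 1 to 19 and X in RefSeq's annotation of GRCm38.p6, the build also called mm10, out of 49554 genes of every kind on these chromosomes. Each gene, with a median length of 80 bases and a range of 39 to 147, was extended by 1 kb on each side to form its locus, and a locus was counted as having a peak when it shared at least 1 base with it. Peaks came from CUT&Tag, an assay in which an antibody brings the Tn5 transposase to DNA near its target protein. The groups were a CHD7 library, a SOX2 library and a control library made with no primary antibody, which is not analysed here. Each came from wild-type mouse embryos at stage E10.5, from 1 pool of 34 dissected otocysts whose dissociated cells were divided into 3 samples. With 1 library for each antibody there was no replicate check, and no test of a difference was possible. The CHD7 list held 33035 peaks and the SOX2 list 155548, so SOX2 peaks were the more common kind. The number of reads behind them is unknown. The authors' coverage summed over a peak, here called total signal, was compared only within a list. Total signals took stepped values (1503 different values for CHD7 and 970 for SOX2), so that several peaks share a value. Of 12 genes that mark the otic epithelium, such as Pax2, Eya1 and Gata3, 10 had a CHD7 peak (against 45.7% of all protein-coding genes) and 12 a SOX2 peak (against 79.0%) within 1 kb of the gene, which describes these chromatin lists and not expression.

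A microRNA is cut from a hairpin in a longer primary transcript and directs repression of messenger RNAs that match its seed, the bases near its 5′ end. Many hairpins lie in introns of protein-coding genes or in long non-coding RNAs (lncRNAs) and are transcribed from the start of that host, which can be far from the hairpin. In the ear, the miR-183 family of miR-183, miR-96 and miR-182 is known from hair cells and sensory neurons, and changes in the seed of miR-96 cause hearing loss in mice and humans. CHD7 is an ATP-dependent chromatin remodeler and SOX2 an HMG-box transcription factor. Both are required for inner ear development.

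The mature sequences of the microRNAs on which the results turn are given below from RefSeq, 5′ to 3′, with the seed (bases 2 to 8) in capitals. They are shown because members of these clusters carry the same or nearly the same seed. Counting from 1 at the 5′ end of the mature RNA, the seed of miR-182 differs from that of miR-96 by C8A, and the seed of miR-183 differs from that of miR-96 by U2A. In the miR-200 cluster, miR-200b and miR-429 share a seed, from which that of miR-200a differs by U4C.
miR-183-5p: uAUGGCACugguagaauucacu
miR-96-5p: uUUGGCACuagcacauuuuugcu
miR-182-5p: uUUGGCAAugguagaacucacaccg
miR-200b-3p: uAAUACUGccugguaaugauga
miR-429-3p: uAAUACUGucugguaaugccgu
miR-200a-3p: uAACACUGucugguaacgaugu
miR-9-5p: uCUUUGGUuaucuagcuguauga
miR-132-3p: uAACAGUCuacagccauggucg
miR-212-3p: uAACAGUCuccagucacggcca
miR-130a-3p: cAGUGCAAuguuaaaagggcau
miR-130b-3p: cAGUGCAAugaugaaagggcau
miR-22-3p: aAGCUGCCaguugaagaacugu
miR-92b-3p: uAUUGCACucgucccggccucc

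The pairs miR-132 and miR-212, and miR-130a and miR-130b, each share a seed across all of its bases. The miR-183 family and the miR-200 cluster stood for microRNAs without a peak at the hairpin, and the others for microRNAs with peaks of both proteins there.

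CHD7 peaks were found at 114 of the 1228 microRNA loci (9.28%, exact binomial 95% interval 7.72 to 11.0), against 3.74% of 1241815 windows of the same width that tiled the chromosomes. SOX2 peaks were found at 374 loci (30.5%, 27.9 to 33.1), against 15.1% of the windows. Both proteins had a peak at 98 loci (7.98%, 6.53 to 9.64), against 2.47% of the windows, and 838 loci had neither. These shares were 2.48 times that of the windows for CHD7, 2.01 times for SOX2 and 3.23 times for both. A SOX2 peak was present at 86.0% of the loci with a CHD7 peak (interval 78.2 to 91.8), against 66.2% of the windows with a CHD7 peak. In the other direction, 26.2% of the loci with a SOX2 peak had a CHD7 peak, against 16.3% of the windows. The intervals treat loci as independent, although clustered genes share peaks, and they cover counting error only.

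Other small RNA genes, extended in the same way, differed by class. Of 408 tRNA loci, 50.5% had a CHD7 peak, 63.7% a SOX2 peak and 47.1% both, far above the microRNA loci. The 1340 snoRNA loci had CHD7 at 5.97% (interval 4.76 to 7.38), SOX2 at 33.1% (30.5 to 35.7) and both at 4.93% (3.83 to 6.22). The 1003 snRNA loci had CHD7 at 7.88% (6.29 to 9.72), SOX2 at 17.2% (15.0 to 19.7) and both at 7.18% (5.66 to 8.95). The microRNA shares of CHD7 and of both proteins thus lay above those of snoRNA loci, while their intervals overlapped those of snRNA loci. The SOX2 share lay above that of snRNA loci, and its interval overlapped that of snoRNA loci. Pooled, the 2751 loci of all 3 classes had 13.3%, 31.8% and 12.0%, values that the tRNA loci raise.

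Inside protein-coding genes lay 832 of the microRNA genes (67.8%), against 39.9% of the windows. Of these, 76 loci had a CHD7 peak (9.13%), against 3.9% of the windows inside coding genes. A SOX2 peak was present at 274 of them (32.9%, against 17.1% of the windows) and peaks of both at 64 (7.69%, against 2.7%). Inside coding genes, SOX2 peaks were present at 25.1% of 462 snoRNA loci, 16.7% of 353 snRNA loci and 55.9% of 34 tRNA loci. CHD7 peaks were present there at 6.49% of the snoRNA, 6.52% of the snRNA and 44.1% of the tRNA loci.

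Outside protein-coding genes lay 396 microRNA genes (32.2%). CHD7 peaks were present at 38 of them (9.6%), against 3.63% of the windows outside coding genes. SOX2 peaks were present at 100 (25.3%, against 13.9%), and both at 34 (8.59%, against 2.32%). Outside coding genes, CHD7 peaks were present at 5.69% of 878 snoRNA loci, 8.62% of 650 snRNA loci and 51.1% of 374 tRNA loci, and SOX2 peaks at 37.2%, 17.5% and 64.4% of these classes in the same order. The CHD7 share of microRNA loci thus differed little between inside and outside, while the SOX2 share was higher inside. Among the 396 genes, 125 lay in an lncRNA gene, of which 11 had a CHD7 peak (windows 3.76%), 37 a SOX2 peak (windows 16.4%) and 11 both (windows 2.52%). The other 271 lay in neither kind of gene, with CHD7 peaks at 27 (windows 3.62%), SOX2 peaks at 63 (windows 13.5%) and both at 23 (windows 2.29%).

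**Figure D1:**
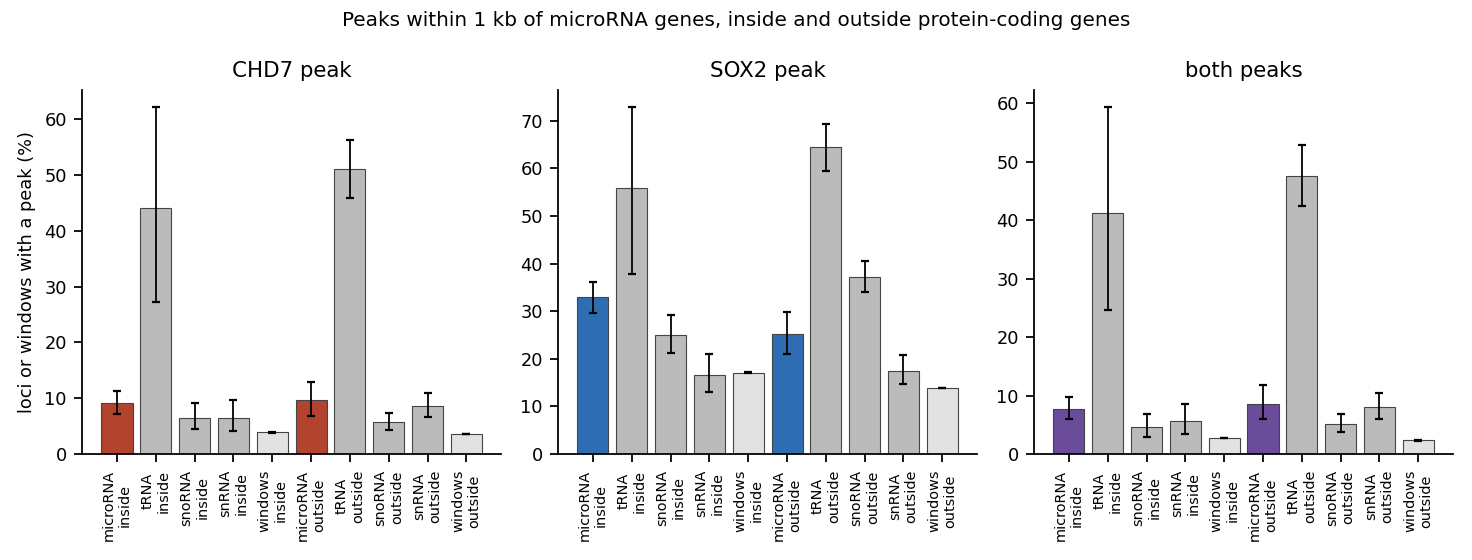
Share of loci or windows with a CHD7 peak, a SOX2 peak or both (y axes, percent), for microRNA loci, tRNA, snoRNA and snRNA loci and tiled windows, inside and outside protein-coding genes (x axis). Bars show the share and lines the exact binomial 95% interval; microRNA loci stand above the windows in all 6 pairs and below the tRNA loci, and for CHD7 outside coding genes they have 9.6%, against 5.69% of snoRNA and 8.62% of snRNA loci.

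Ends of protein-coding genes, where many promoters lie, moved with these shares. Within 1 kb of such an end were 150 microRNA loci (12.2%, against 3.15% of the windows). Of these, 41 had a CHD7 peak (27.3%, against 15.7% of windows at such ends), 84 a SOX2 peak (56.0%, against 35.9%) and 40 both (against 13.6%). Among the 1078 loci farther from coding ends, 73 had a CHD7 peak (6.77%, against 3.35%), 290 a SOX2 peak (26.9%, against 14.5%) and 58 both (against 2.11%). The shares thus remained above the windows on either side of this division.

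Seen from the peaks, 111 CHD7 peaks and 362 SOX2 peaks touched a microRNA locus. Of the CHD7 peaks, 91 overlapped a protein-coding gene (82.0%, against 47.0% of all CHD7 peaks on these chromosomes) and 20 did not, while 41 lay wholly inside a coding gene. Of the SOX2 peaks, 282 overlapped a coding gene (77.9%, against 46.8% of all) and 80 did not, with 214 wholly inside. An end of a coding gene lay within 1 kb of 55.9% of the CHD7 peaks at microRNA loci (against 18.5% of all CHD7 peaks) and of 32.0% of the SOX2 peaks (against 9.94%). These peaks were chosen for touching microRNA loci, of which 67.8% lie inside coding genes (windows 39.9%) and 12.2% at their ends (windows 3.15%). Coding shares above those of all peaks are thus not a separate result. CHD7 peaks at microRNA loci overlapped a SOX2 peak in 78.4% of cases, against 65.4% of all CHD7 peaks, and SOX2 peaks there overlapped a CHD7 peak in 23.2%, against 14.8%. Peaks at microRNA loci had a median total signal at the percentile 64.1 of the CHD7 list and 62.5 of the SOX2 list. Among the strongest 10% were 10.8% of these CHD7 peaks (all 9.95%) and 20.4% of these SOX2 peaks (all 10.1%). They were also wider than all peaks, with medians of 1150 against 950 bases (CHD7) and 700 against 650 (SOX2). Total signal is summed over a peak, and the part of width was not tested.

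The peaks were not centred closely on most hairpins. The nearest CHD7 peak lay on the microRNA gene itself for 59 genes, within 1000 bases for 55 more, and over 50000 bases away for 274, with a median distance of 21402 bases. The nearest SOX2 peak lay on the gene for 162 genes, within 1000 bases for 212 more and over 50000 bases away for 12, with a median of 2840 bases. Near the limit of 1 kb, 4 genes had their nearest CHD7 peak in the last 100 bases inside it and 3 in the first 100 bases outside, and for SOX2 these counts were 17 and 17.

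A strand was known for 1005 of the microRNA genes, which allowed upstream and downstream to be told apart. In bins of 500 bases, CHD7 peaks covered a part of the first bin downstream of the 5′ end of the hairpin for 6.17% of the genes. At 2000 to 2500 bases from that end, they covered a part of the upstream bin for 5.57% and of the downstream bin for 2.49%. Between 1 and 5 kb upstream, 12.3% of the genes had a CHD7 peak, against 8.06% at the same distance downstream. The SOX2 values were 39.2% upstream and 33.4% downstream. Outside coding genes, where 346 genes had a known strand, CHD7 had 11.3% upstream and 7.51% downstream, and SOX2 32.9% upstream and 28.6% downstream. At these distances the upstream side thus had more peaks of both proteins. Between 5 and 20 kb, CHD7 had 25.9% upstream and 23.5% downstream over all genes with a known strand. For SOX2 at this distance the upstream side was the higher outside coding genes (65.6% upstream and 59.8% downstream) and the lower inside them (70.3% and 73.6%).

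**Figure D2:**
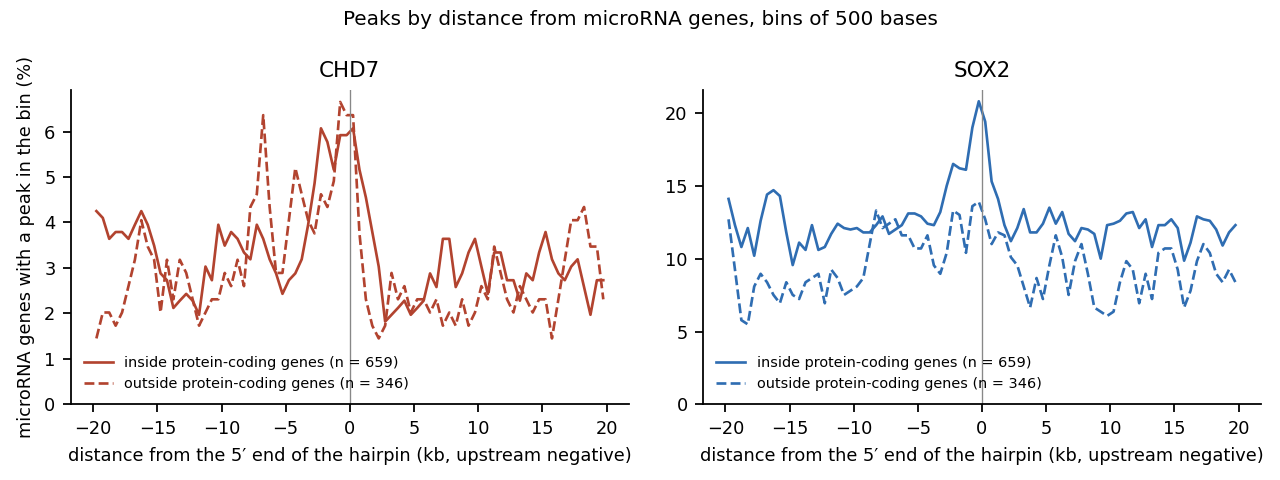
Share of microRNA genes with a CHD7 peak (left) or a SOX2 peak (right) in each bin of 500 bases (y axes, percent), by distance in kb from the 5′ end of the hairpin, upstream negative (x axes). Solid lines are the 659 genes inside and dashed lines the 346 genes outside protein-coding genes with known strand; peaks are more frequent at and just upstream of the hairpin than downstream, 12.3% against 8.06% of genes for CHD7 at 1 to 5 kb.

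Hosts of microRNAs had peaks at their starts more often than genes of the same kind. A host was a gene on the same strand that contains the hairpin, and its start was the most upstream one in the RefSeq promoter table. For 480 microRNA genes a protein-coding host was found, with 449 different hosts. CHD7 peaks lay within 1 kb of 203 of these starts (45.2%, interval 40.5 to 49.9), against 30.4% of the starts of all 17274 protein-coding genes in the table. SOX2 peaks lay at 317 (70.6%, against 53.9%) and both at 188 (41.9%, against 27.6%). For 89 microRNA genes the host was one of 52 lncRNA genes. CHD7 peaks lay at 13 of these starts (25.0%, interval 14.0 to 38.9), against 11.1% of 9520 lncRNA starts, SOX2 peaks at 23 (44.2%, against 30.3%), and both at 13 (against 9.2%). Each lncRNA host with a CHD7 peak at its start thus had a SOX2 peak there too. This was also common over all lncRNA starts, where 876 of the 1060 with a CHD7 peak had both. Hosts were longer than genes of the same kind, with a median of 34612 bases against 17165 for coding genes and 20219 against 8720 for lncRNA genes, and their starts were richer in CpG. The part of length and of CpG content in the host shares was not tested.

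Both proteins also had peaks at host starts where the hairpin had none, at lower shares than over all microRNAs with such a host. The shares over all include the microRNAs without a hairpin peak. Of the 480 microRNAs with a protein-coding host, 41.9% had both proteins at the host start, and of the 329 among them with neither protein within 1 kb of the hairpin 127 did (38.6%). The median distance to the start was 17310 bases over all 480. Of the 89 with an lncRNA host, 18.0% had both at the start, and of the 73 with neither protein at the hairpin 12 did (16.4%), with a median distance of 6366 bases over all 89. Over both kinds of host, CHD7 lay at the host start of 234 of 569 microRNAs (41.1%), SOX2 at 367 (64.5%) and both at 217 (38.1%). The miR-183 family and the miR-200 cluster made up 6 of the 12 with an lncRNA host.

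The miR-183 family lies on the minus strand of chromosome 6, outside protein-coding genes, in the lncRNA gene Mirc35hg (chr6:30158640-30174125). In the direction of transcription come Mir183 (chr6:30169668-30169737), Mir96 (chr6:30169446-30169551), 116 bases after it, and Mir182 (chr6:30165918-30165992), 3453 bases further on. No CHD7 or SOX2 peak lay within 1 kb of any of them. The nearest CHD7 peak was 3914 bases from Mir183 and the nearest SOX2 peak 2414 bases from it. Both proteins instead had a peak across the start of Mirc35hg at position 30174125, which is 4388 bases upstream of Mir183, 4574 of Mir96 and 8133 of Mir182. The CHD7 peak there (chr6:30173651-30176350) was 2700 bases wide, with a total signal of 1744, at the percentile 92.2 of its list, and it was the only CHD7 peak within 50 kb of the cluster. The SOX2 peak there (chr6:30173751-30174950) was 1200 bases wide, with a total signal of 2463, at the percentile 93.4. A weaker SOX2 peak (chr6:30175901-30176550, total signal 1378) overlapped the upstream end of the same CHD7 peak. Just beyond these peaks lies another lncRNA gene, BB283400 (chr6:30176623-30178046). Within the host body, SOX2 peaks without CHD7 lay at chr6:30172151-30172800 (938.3) and chr6:30161601-30162650 (1290), and another at chr6:30157751-30158800 (1818) covered its downstream end. In all, 8 SOX2 peaks lay within 50 kb of the cluster.

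**Figure D3:**
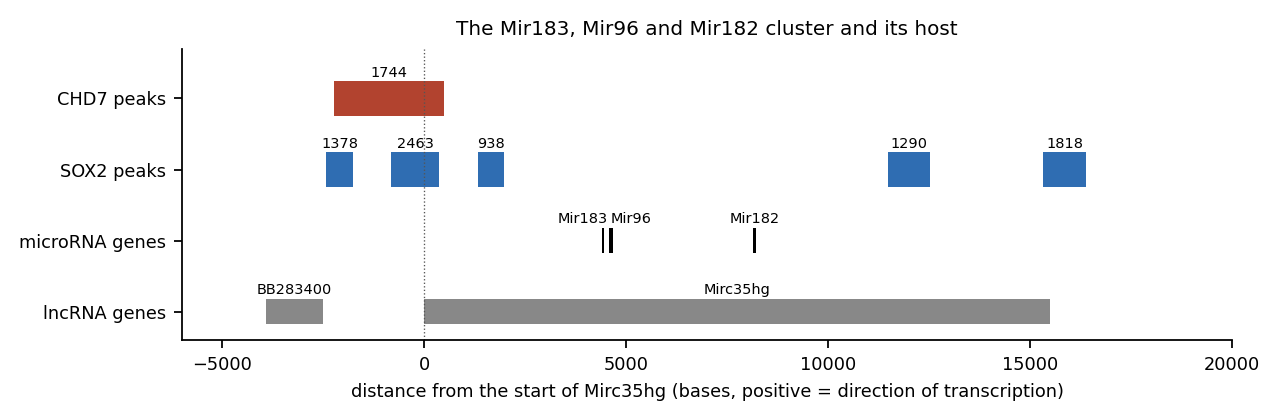
Peaks of CHD7 and SOX2 around the miR-183 family, drawn by distance in bases from the start of the lncRNA Mirc35hg in the direction of transcription (x axis), with the authors' total signal over each peak; rows show peaks, microRNA genes and lncRNA genes. The CHD7 peak of 1744 and the SOX2 peak of 2463 both cover the start, and the 3 hairpins lie between SOX2 peaks with none within 1 kb.

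The miR-200 cluster, known for keeping epithelial identity by repressing Zeb1 and Zeb2, had the same arrangement. Its members Mir200b, Mir200a and Mir429 lie 4052, 4817 and 5815 bases downstream of the start of the lncRNA Gm13648 on the minus strand of chromosome 4. No peak of either protein lay within 1 kb of these hairpins, the nearest being 3551 bases from Mir200b. At the host start, position 156059802, a CHD7 peak (chr4:156059301-156060600, total signal 701.4, percentile 56.0) and a SOX2 peak (chr4:156059301-156060400, 2404, percentile 93.0) coincided. The other epithelial microRNAs had SOX2 alone or neither. Mir200c and Mir141, from a second cluster of the family, shared a SOX2 peak of 1906, Mir205 had a SOX2 peak of 1056, and Mir203, a microRNA of differentiating epidermis, had no peak.

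The promoters of these 2 host lncRNAs are shown because both peaks cover them, from RefSeq on GRCm38.p6 in the direction of transcription, 250 bases before to 50 after the start, with each CpG in capitals. The first is chr6:30174076-30174375 and the second chr4:156059753-156060052, both on the minus strand.
Mirc35hg: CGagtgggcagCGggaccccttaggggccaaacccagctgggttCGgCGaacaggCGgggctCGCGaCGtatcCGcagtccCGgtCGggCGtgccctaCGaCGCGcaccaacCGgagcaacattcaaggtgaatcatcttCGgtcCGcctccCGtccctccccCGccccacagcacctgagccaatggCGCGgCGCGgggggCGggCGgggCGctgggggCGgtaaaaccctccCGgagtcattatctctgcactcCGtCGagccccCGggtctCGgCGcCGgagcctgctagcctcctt
Gm13648: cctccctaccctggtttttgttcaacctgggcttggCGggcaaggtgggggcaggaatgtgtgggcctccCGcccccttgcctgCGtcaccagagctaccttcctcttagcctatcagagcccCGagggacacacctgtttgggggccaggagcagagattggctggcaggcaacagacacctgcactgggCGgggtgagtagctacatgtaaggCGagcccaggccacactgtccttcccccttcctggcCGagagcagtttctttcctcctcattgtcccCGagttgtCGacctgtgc

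The Mirc35hg promoter held 35 CpG and was 70.3% G and C, and the Gm13648 promoter held 9 CpG and was 61.7% G and C. The median over 9520 lncRNA promoters was 4 CpG (quartiles 2 and 8), and over the 52 lncRNA hosts of microRNAs it was 8. Promoters of lncRNA genes with a CHD7 peak on these 300 bases had a median of 22 CpG, against 4 without, and those with a SOX2 peak 12, against 3 without. The SOX-like motifs ACAAAG and ACAATG were searched on both strands (as CTTTGT and CATTGT on the other). Neither was found in the Mirc35hg promoter, and CATTGT occurred in the Gm13648 promoter 23 bases after the start. Of all lncRNA promoters 34.0% held a match, with 23.9% of those under a SOX2 peak and 36.1% of those without. A match is a description of letters and does not mark a bound site.

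Of the neural microRNAs, miR-124, which represses non-neuronal messages in neurons, and miR-9, which acts in neural progenitors, each have 3 genes. Among these 6 genes 4 had a CHD7 peak, 5 a SOX2 peak and 4 both, against 9.28%, 30.5% and 7.98% of all microRNA loci. All 6 lie outside protein-coding genes. At Mir124a-2 a CHD7 peak (chr3:17793251-17794950, total signal 751.5, percentile 61.7) overlapped a SOX2 peak (chr3:17793451-17794750, 2463, percentile 93.2). At Mir124a-3 a CHD7 peak of 537.4 (chr2:180894251-180895450, percentile 30.1) overlapped a SOX2 peak of 2463 (chr2:180894301-180895150, percentile 93.4). Mir124a-1 had only a SOX2 peak (chr14:64589001-64589950, 1114), and its nearest CHD7 peak was 80957 bases away. The copies thus differed from each other. Both CHD7 peaks were of middling or low rank, and the SOX2 peaks at Mir124a-2 and Mir124a-3 ranked high while that at Mir124a-1 was at the percentile 62.5.

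The miR-9 genes differed in the same way. At Mir9-2 a CHD7 peak of 838 (chr13:83737401-83738900, percentile 69.5) covered the hairpin and overlapped a SOX2 peak of 2053 (chr13:83737351-83738450, percentile 90.3). At Mir9-3 a CHD7 peak of 824.3 (chr7:79505751-79507050) overlapped a SOX2 peak of 2522 (chr7:79505651-79506900, percentile 93.7). Mir9-1 had neither, with the nearest CHD7 peak 16598 bases and the nearest SOX2 peak 4298 bases away. At the annotated start of the Mir9-2 host C130071C03Rik, 17433 bases upstream of the hairpin, there were also a CHD7 peak of 546.5 and a SOX2 peak of 1056, which did not overlap. The most upstream starts of the other hosts, Gm3764 of Mir9-1 and Mir9-3hg of Mir9-3, had neither protein. Thus 1 of 3 known host starts had both, against 38.1% of all microRNAs with a host.

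Of 19 other neuronal microRNA genes, 2 had a CHD7 peak, 9 a SOX2 peak and 2 both. The 2 with both were Mir132 and Mir212, activity-regulated neighbours that share a seed and shared the same peaks, a weak CHD7 peak of 487.3 (chr11:75173201-75174150, percentile 18.2) and SOX2 peaks of 1437 (chr11:75173101-75174150) and 2492 (chr11:75171101-75172950). The strongest SOX2 peak of the group was at Mir219a-1, of a family that acts in oligodendrocyte maturation, with 5571 (percentile 98.8) and no CHD7 peak. Of the 10 with a known host start, 4 had CHD7 there (against 41.1% of all microRNAs with a host) and 9 had SOX2 (against 64.5%). They included Mir128-1 in R3hdm1 (CHD7 1398, SOX2 6627), Mir7-1 in Hnrnpk (1298 and 5747), Mir135a-1 in D030055H07Rik (573.8 and 2375) and Mir218-1 in Slit2 (446.3 and 3401), at which all hairpins themselves had neither.

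Among 17 genes of the broadly expressed miR-30, miR-29, miR-26 and miR-130 families, 4 had peaks of both proteins (23.5%, against 7.98% of all microRNA loci), namely Mir130a, Mir130b, Mir301b and Mir26b, and the other 13 had none. The peak at Mir130a was among the strongest, with a SOX2 total of 7301 (chr2:84741901-84744650, percentile 99.3) over a CHD7 peak of 1148 (chr2:84742001-84743450, percentile 83.2). Mir130b and Mir301b shared a CHD7 peak of 961 (chr16:17124701-17125650) and SOX2 peaks of 1730 and 1232 at the start of 2610318N02Rik. Of the 10 genes with a known host start, 8 had both proteins there (against 38.1% of all microRNAs with a host). All 8 have protein-coding hosts, for which the share over all such microRNAs was 41.9%. Among them were Nfyc, host of Mir30c-1 and Mir30e (CHD7 601.2, SOX2 2756), and Ska2, host of Mir301 (2824 and 4076). Genes with the same host, as Mir30c-1 with Mir30e and Mir130b with Mir301b, share its start peaks and are not independent. Mir29b-2 and Mir29c share the lncRNA host A330023F24Rik, with neither protein at its start.

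The miR-17-92 family is known for driving proliferation. Of its 15 genes, 1 had a CHD7 peak (6.67%, against 9.28% of all microRNA loci) and 6 a SOX2 peak (40.0%, against 30.5%). These 6 form the Mir17 to Mir92-1 cluster and lie within 1 kb of the same SOX2 peak of 879.7, and the CHD7 peak of 583 beside Mir17 did not overlap it. Mir25, Mir93 and Mir106b lie in the replication gene Mcm7 with neither protein at the hairpins and both at its start (CHD7 1375, SOX2 6128). Among 18 let-7, miR-125 and miR-99 genes, which mark differentiation, none had a CHD7 peak and 7 had a SOX2 peak (38.9%, against 30.5%). Of the 8 with a known host start, 2 had both proteins there (against 38.1% of all microRNAs with a host). These were Mirlet7f-2 and Mir98 in Huwe1 (1339 and 3196), at whose hairpins neither protein had a peak. Of 11 genes of the miR-15, miR-16, miR-34 and miR-449 families, 1 had a SOX2 peak (9.09%, against 30.5%) and none a CHD7 peak. Of 3 with a known host start, Mir16-1 alone had both proteins there, at Dleu2 (633.1 and 3724).

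Lists of microRNAs known from other tissues gave mixed counts. The shares over all microRNA loci, for comparison, were 9.28% with CHD7, 30.5% with SOX2 and 7.98% with both. The 12 mesenchymal genes made 8 groups when joined at 10 kb, with CHD7 at 3 groups and SOX2 at 4. Of the 12 genes 3 had CHD7, 7 SOX2 and 2 both (25.0%, 58.3% and 16.7%). Those with both were Mir199a-2, in the antisense lncRNA Dnm3os (CHD7 774.2; SOX2 821 and 762.4), and Mir199b in Dnm1 (CHD7 1731 and 947.3; SOX2 1525), while Mir199a-1 had CHD7 alone (1567, percentile 90.4). Of 10 blood genes 1 had both, Mir146b (537.4 and 2492), and 1 more SOX2 alone. Of 10 muscle genes, 4 had SOX2 and none CHD7. The 5 with a known host start had neither there, against 41.1% with CHD7 and 64.5% with SOX2 of all microRNAs with a host. Mir206 and Mir133b among these 5 share the host Lincmd1. Of the 7 mesenchymal genes with a known host start, 6 had CHD7 there, 3 of them with SOX2 as well. Mir23b, Mir27b and Mir24-1 among these share the host Aopep, and Mir199a-2 and Mir214 share Dnm3os. The 2 blood genes and the 1 Hox gene with a known host start had neither protein there. Both endothelial genes, Mir126a and Mir126b, which overlap within Egfl7, had SOX2 and not CHD7 within 1 kb of the hairpin. The most upstream start of Egfl7, host of Mir126a, had a CHD7 peak of 592.1 and no SOX2 peak. Of 6 genes in Hox clusters, Mir196b had both (906.3 and 909) and the other 5 neither.

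The 6 liver and gut genes, the 3 eye genes and the 13 genes of the pluripotency clusters miR-290 and miR-302 had no peak of either protein at the hairpin. With 30.5% of all microRNA loci holding a SOX2 peak, the lists of 3 and 6 genes are too short to stand apart by a count of 0. At host starts, SOX2 without CHD7 was present for both eye genes with a known host, Mir204 in Trpm3 (2932) and Mir211 in Trpm1 (733.1). Of 10 pluripotency genes with a known host start, 1 had SOX2 there and none CHD7, namely Mir292b in Nlrp12 (1290). SOX2 lay at the host start of 64.5% of all microRNAs with a host. SOX2 is itself a pluripotency factor, and neither hosts nor hairpins of the miR-302 cluster carried its peaks here, the nearest SOX2 peak being 6844 bases from Mir367. Members of each of these clusters lie close together and share any peak, so they are not independent.

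**Figure D4:**
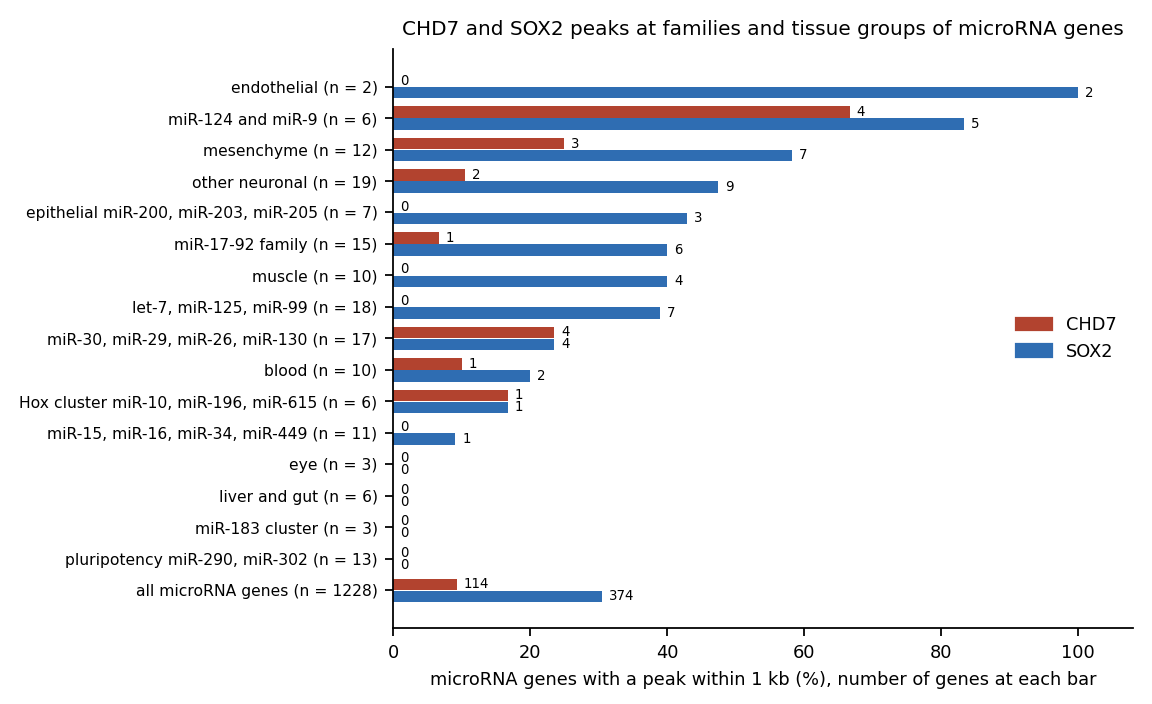
Share of microRNA genes with a CHD7 or a SOX2 peak within 1 kb (x axis, percent) for 16 lists by family and tissue, with all microRNA genes at the bottom; numbers beside the bars are genes with a peak and n is the size of the list. The miR-124 and miR-9 genes have the largest CHD7 share (4 of 6), and 4 lists have no peak of either protein.

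Among loci inside protein-coding genes, 516 of 832 (62.0%) carry a number of 1000 or above, and no role is given here for those named below. Mir6546 in Fcgr3 had a CHD7 peak of 3798 (percentile 98.4) within which lay a SOX2 peak of 17447 (percentile 99.9). Mir5620 in Clcn4 had CHD7 peaks of 2232 and 555.6 and the highest SOX2 total of any microRNA locus, 18239. Mir707 in Akt1s1 (CHD7 3111, SOX2 7331) and Mir7655 in Mllt10 (3434 and 5425) also had strong peaks of both. The highest CHD7 total, 5028, was at Mir6481 in Wars2, in a peak only 550 bases wide whose maximum signal was 39.9, with no SOX2 peak within 3144 bases. Loci numbered 1000 or above had a CHD7 peak in 10.9% of 654 cases and a SOX2 peak in 32.4%, and those of lower number or the let-7 name in 6.65% and 27.6% of 526.

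Outside protein-coding genes the highest CHD7 total among loci with both was at Mir22, a broadly expressed microRNA. Its CHD7 peak of 3684 (chr11:75461051-75463450, percentile 98.3) overlapped a SOX2 peak of 5542 (chr11:75461201-75463350, percentile 98.8) in the lncRNA Mir22hg. Higher SOX2 totals than that of Mir22 were found at Mir130a (8064 over its peaks), at Mir5615-1 and Mir5615-2 (6304 each) and at Mir3069 (6275). Mir219a-1 and Mir219c, without CHD7, also had a higher SOX2 total (5571 each). Other strong loci were Mir484 (CHD7 1471, SOX2 3871) and Mir210, a microRNA induced in hypoxia (1038 and 3079). Mir92b, of the miR-92 seed family, had a CHD7 peak of 664.9 and SOX2 peaks of 4164 and 733.1. Mir101c (chr9:3038669-3038743) had a SOX2 peak of 5483 without CHD7. The peak lists were not filtered here for stretches prone to false signal.

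**Figure D5:**
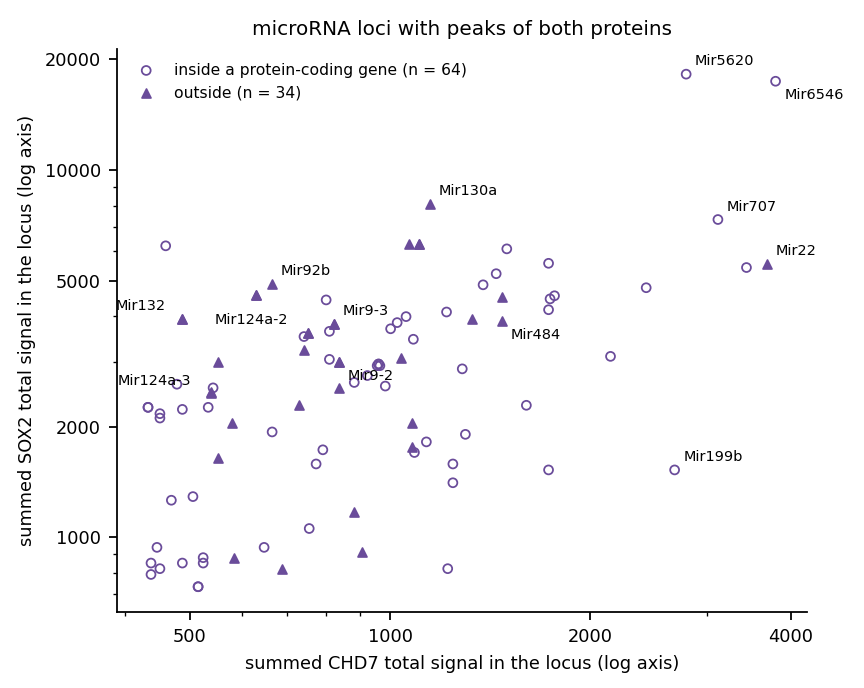
Summed total signal of CHD7 (x axis, log) and of SOX2 (y axis, log) in the 98 microRNA loci with peaks of both proteins, open circles inside (n = 64) and filled triangles outside (n = 34) protein-coding genes. Mir6546 and Mir5620 reach the highest SOX2 totals (17447 and 18239), and Mir22 the highest CHD7 total outside coding genes (3684).

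Most microRNA genes stood alone. Joined at distances of up to 10 kb they made 943 groups, of which 843 held a single gene and 100 held the other 385. The 5 largest groups, with 155 genes, had no CHD7 peak at any member. The largest, 72 genes from Mir466m to Mir669h in the gene Sfmbt2, had SOX2 peaks at 31 members, with 8 SOX2 peaks in its span. The 39 genes from Mir379 to Mir3072 and the 16 from Mir770 to Mir136, both in the imprinted Dlk1-Meg3 region of chromosome 12, had SOX2 at 5 and 8. The 19 from Mir743 to Mir465 on chromosome X had SOX2 at 1, and the 9 of the miR-290 cluster had none. Counted once per group, 103 of 943 groups had a CHD7 peak (10.9%), 301 a SOX2 peak (31.9%) and 87 both (9.23%).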

How the data were processed

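Cells of 1 pool of otocysts gave a CHD7, a SOX2 and a control library, per the labels' protocols. Per the submitters' processing notes, the tools were Bowtie2, deepTools and SEACR, with the build mm10. Their versions, the calling threshold, the use of the control and the scaling were not given in the sources used. The deposited lists give, for each peak, the authors' total and maximum coverage signal. The lists began at total signals of 433 (CHD7) and 733 (SOX2), and borders lie on bins of 50 bases.

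Gene positions, mature microRNAs and promoters came from RefSeq tables of GRCm38.p6, with coordinates counted from 1. A hairpin, and through it a strand, was matched for 1005 of 1228 microRNA genes. A microRNA gene was inside a protein-coding gene when they shared 1 base. Background windows of 2080 bases, the median locus width, tiled chromosomes 1 to 19 and X, leaving out stretches of over 500 kb without peak or gene. Shares carry exact binomial (Clopper-Pearson) 95% intervals. PCR duplicates may remain, so intervals cover counting error of loci only. No test was run, since each antibody had 1 library. The overlap count was tested on simulated data.

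The members, the 16 lists (160 symbols, 158 matched) and the rules were chosen with earlier results of these data known. The rule for naming gave the miR-183 family, from each list up to 3 members with both proteins and up to 2 with neither, the 10 loci with the highest total signal of each protein and the 10 with both by the worse of their 2 ranks, inside and outside coding genes apart, and the 5 largest groups. The text names a part of these, chosen after their values were seen; further list members, and microRNAs with peaks at a host start, were named after their values were seen. Alternatives were other windows, stronger peaks, maximum-signal regions, joined genes, loci away from coding ends, other small RNA genes as background and, chosen after seeing the data, leaving out the largest group, leaving out loci and windows at coding ends, leaving tRNA genes out of the small RNA background, and any listed host start. Computation was done in Python 3.11.15 with pandas 2.3.3, numpy 2.4.6 and scipy 1.17.1, and figures were drawn in matplotlib 3.10.9.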

Additional observations from a re-analysis of the deposited data

How the results depend on the processing

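The counts of loci followed the window and the length of the peak lists. Without a window, with a peak on the microRNA gene itself, 59 loci had CHD7, 162 SOX2 and 40 both, and with 5 kb on each side 252, 776 and 232. With the stronger 50% of each list the counts were 73, 233 and 61, and with the 10000 strongest peaks of each list 49, 54 and 31, so that with lists of equal length the counts of both proteins were close. With the SOX2 list cut to the length of the CHD7 list, 136 loci had SOX2. Leaving out loci at ends of coding genes left 73 with CHD7 and 58 with both. Of 111 CHD7 peaks at microRNA loci, 41 lay wholly inside a coding gene, against 91 that overlapped one.

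The ratio of the microRNA share to the background depended on the background. Against snoRNA, snRNA and tRNA loci together in place of windows it was 0.7 for CHD7, 0.956 for SOX2 and 0.665 for both over all loci, 1.14, 1.44 and 1.19 inside coding genes, and 0.615, 0.704 and 0.594 outside. Without the tRNA loci, a choice made after seeing the data, these ratios were 1.37, 1.16 and 1.35 over all loci, 1.4, 1.53 and 1.53 inside, and 1.38, 0.875 and 1.35 outside. With loci and windows at coding ends left out, the ratio to windows was 2.02 for CHD7 and 2.55 for both. The other 39 recomputed values stayed within 1.5 times of the reported count or within its interval, among them all those without the Sfmbt2 group and with any listed host start.

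No paired analysis was possible because each antibody had 1 library and no test was run. The lists hold no signal below their minimum, so a locus without a peak was not shown to lack the protein, and the control library is not analysed here.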
